A study of Mus musculus with 6 samples.

Results

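The STAR family (signal transduction and activation of RNA) is a group of RNA-binding proteins, and 5 of its genes were followed here: *Khdrbs1*, *Khdrbs2*, *Khdrbs3*, *Qk* and *Sf1*. They were chosen by gene symbol, as the family of the knocked-out genes, and are 5 of the 59484 features in the deposited table, of which 23505 carry a symbol. Each of the 5 symbols had 1 row, and all 5 passed the filter on low counts (a mean of 10 normalized counts or more) that left 18970 features to test. PolyA+ RNA was sequenced from the cerebral cortex of mouse embryos at embryonic day 18.5 (E18.5), shortly before birth, with 3 embryos that were wild-type and 3 that the labels give as Sam68:Slm2 double knockout (dKO). The values are read counts per gene divided by a size factor of the library, called normalized counts below. The comparison asks how the family is expressed when *Khdrbs1*, which encodes Sam68, and *Khdrbs3*, which encodes SLM2, are both disrupted.

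The mice were C57BL/6 per the study's methods, and the knockouts were inherited rather than induced in a chosen cell type. The dKO embryos came from intercrosses of parents that lacked *Slm2* altogether and were heterozygous for *Sam68*, so wild-type embryos could not be their littermates, and litter and genotype cannot be told apart. Which exons each allele lacks is not given in the sources used here. The table counts whole genes and holds no value for single exons, so reads of a transcript that lacks part of its coding sequence add to the same count as reads of the intact one. In bulk cortex, fewer cells of a type and less RNA per cell cannot be told apart.

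STAR proteins share a KH domain, which holds the RNA, flanked by conserved regions through which several of them pair up. Sam68, SLM1 (encoded by *Khdrbs2*) and SLM2 form a close subfamily that binds U- and A-rich motifs such as UAAA and UUAA and decides whether nearby exons enter the mRNA. Sam68 is made in most tissues, while SLM1 and SLM2 are found mainly in the nervous system, SLM2 also in testis. Sam68 and SLM2 are known to lower their own mRNAs by directing splicing toward isoforms that are degraded by nonsense-mediated decay (NMD), the pathway that removes mRNAs with premature stop codons. The study cites earlier work in which SLM2 represses *Khdrbs2* by NMD in the hippocampus. It also reports that SLM2 limits Sam68 by NMD in the cortex late after birth. The part of such control in the values below was not tested. Quaking, encoded by *Qk*, binds ACUAAC or ACUAAU and is best known from glia, where it supports myelination. SF1, encoded by *Sf1*, recognises the branch site of introns early in splicing together with the U2AF heterodimer and works in every cell.

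The coding sequences of the members were aligned base by base in pairs. Pairs that include *Qk* or *Sf1* were identical at 53.8% to 62.3% of aligned bases, below the subfamily pairs. Over the aligned bases of their main coding sequences (GENCODE release M21, GRCm38), *Khdrbs2* and *Khdrbs3* were identical at 71.0% of 999 bases, *Khdrbs1* and *Khdrbs2* at 66.9% of 1002 and *Khdrbs1* and *Khdrbs3* at 66.3% of 994. The most alike stretch of 30 bases in all 3 genes lies across the junction of exons 2 and 3, within the part that encodes the KH domain. How well reads of the paralogs can be told apart there was not measured. It runs from position 129730215 of chromosome 4 down to 129727657 in *Khdrbs1* (minus strand), from 32244013 of chromosome 1 to 32333480 in *Khdrbs2* and from 68995156 of chromosome 15 to 69013372 in *Khdrbs3* (both plus strand), with the intron between the exons left out. Capitals mark the 4 positions at which the 3 genes are not all the same:
Khdrbs1: aaGcagtAtccAaagttcaaTtttgtgggg
Khdrbs2: aaAcagtAtccAaagttcaaTtttgtgggg
Khdrbs3: aaGcagtTtccCaagttcaaCtttgtgggg
In this stretch *Khdrbs1* and *Khdrbs2* are nearly the same and *Khdrbs3* stands apart. The longest run without a difference between any annotated transcripts was 29 bases for *Khdrbs1* and *Khdrbs2*, cagtatccaaagttcaattttgtggggaa, which overlaps the stretch above. For *Khdrbs2* and *Khdrbs3* the longest shared run was 16 bases, and for *Khdrbs1* and *Khdrbs3* it was 15. The levels below therefore rest on transcripts that differ at short intervals, although how the authors' counting treated reads that match more than a single place is not given in the sources used here.

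The 3 subfamily genes differed between the genotypes and the other members did not pass the test. *Khdrbs1* and *Khdrbs3* were lower in dKO cortex and *Khdrbs2* was higher, with a limma adjusted p under 0.05. These 3 of 5 members compare with 19 of the 18970 tested features, or 0.1%, in either direction, of which 10 were higher and 9 lower. The 19 include the 3 members. *Khdrbs1* and *Khdrbs3* are the disrupted genes for which the family was chosen, so only the call of *Khdrbs2* concerns an untargeted member. The 3 called members are also those in which the genotypes did not overlap, a pattern found in 16.4% of all tested features. The plot of the members by library shows the 3 separations and the overlap of *Qk* and *Sf1*.

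**Figure D1:**
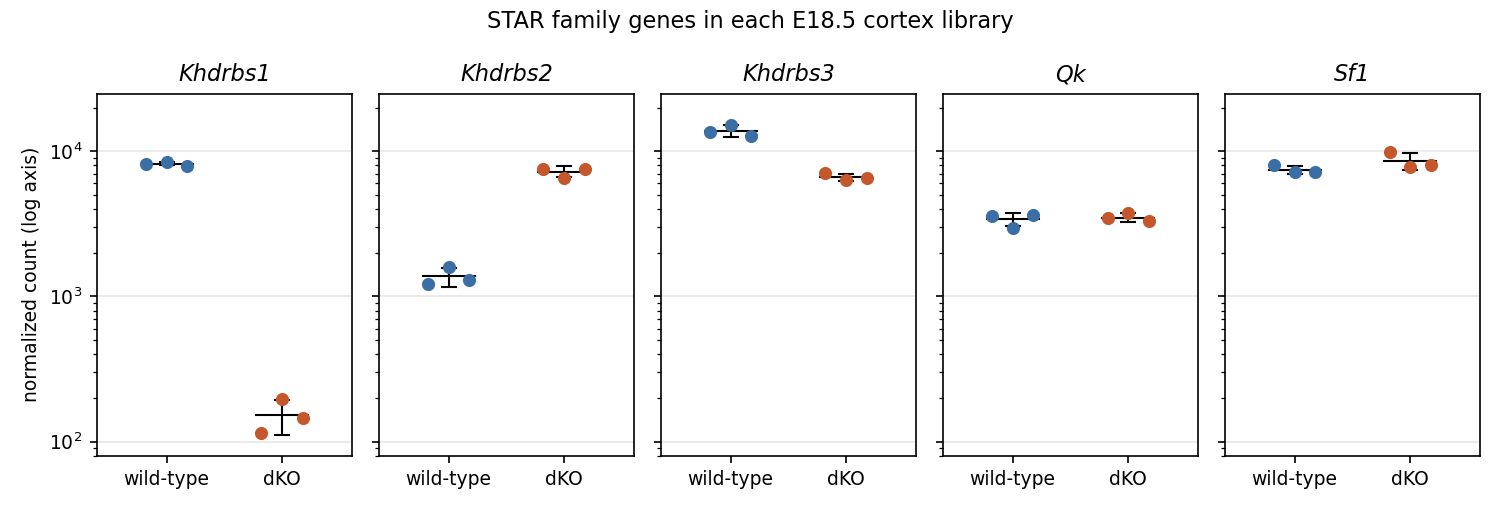
Normalized counts (log axis) of the 5 STAR family genes in each library, 3 wild-type (blue) and 3 dKO (orange) embryos per gene in the order of their replicate numbers, with the mean as a horizontal line and the SD as bars. *Khdrbs1* drops from between 7974 and 8436 to between 114 and 197, *Khdrbs2* rises from between 1212 and 1607 to between 6499 and 7601, *Khdrbs3* lies lower in all 3 dKO libraries, and *Qk* and *Sf1* overlap.

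*Khdrbs1* (GSMG0028412, chromosome 4 from 129703169 to 129742304, build mm10, minus strand) had 8231, 8436 and 7974 normalized counts in wild-type replicates 1, 2 and 3. In dKO replicates 1, 2 and 3 it had 114, 197 and 146. Every dKO library lay far below every wild-type library, and dKO replicate 2 was the highest of the knockouts. The wild-type mean was 8213 ± 232 and the dKO mean 152 ± 41.5 (SD, n = 3 embryos per genotype), which is 1.86% of the wild-type level. limma gave a log2 fold change of -5.78 (SE 0.16, 95% interval from -6.14 to -5.41, adjusted p = 1.08e-07). It was the largest fall of all tested features. The counts left in dKO cortex were not zero: they rest on 126, 188 and 126 reads. Among the members *Khdrbs1* in dKO libraries also varied most between replicates, with a coefficient of variation (SD over mean) of 27.2%, against 2.82% in wild-type and a dKO median of 7.28% over 6079 well-covered features (mean of 1000 or more). Those features have far more counts than *Khdrbs1* in dKO libraries, and features of like level were not compared.

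*Khdrbs3* (GSMG0013257, chromosome 15 from 68928418 to 69101211, plus strand), the other disrupted gene, fell much less. It had 13543, 15215 and 12764 normalized counts in wild-type libraries and 7060, 6350 and 6547 in dKO libraries. The lowest wild-type library was still well above the highest dKO library. The mean went from 13841 ± 1252 to 6652 ± 366 (SD, n = 3 per genotype), leaving 48.1% of the wild-type level, with a 95% interval of the fold from 0.422 to 0.549 on the log2(normalized count + 1) scale. limma gave a log2 fold change of -1.05 (SE 0.09, adjusted p = 0.000855). Without limma's trend and robust options the adjusted p was 0.0891 at the same fold change, and edgeR and DESeq2 on the recovered reads gave log2 fold changes of -1.06 each. Of the tested features, 445 had a lower log2 fold change, but their means had a median of 18.2 normalized counts and only 3 of them, *Khdrbs1* included, had a mean of at least 1000. Reads of this gene stayed plentiful in the knockout, at 7779, 6072 and 5645 per dKO library. By western blot, the study reports that Sam68 and SLM2 protein were absent from the cortex of dKO mice that survived birth. The counts here are of RNA and do not measure protein.

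*Khdrbs2* (GSMG0000107, chromosome 1 from 32172722 to 32658569, plus strand), the paralog that was not targeted, had 1212, 1607 and 1300 normalized counts in wild-type libraries. It had 7585, 6499 and 7601 in dKO libraries. Each dKO library held several times more than any wild-type library. The mean rose from 1373 ± 207 to 7228 ± 631 (SD, n = 3 per genotype). The log2 fold change was 2.40, its standard error 0.11, and its 95% interval 2.15 to 2.65 (limma, adjusted p = 4.58e-06). In folds this is 5.27, with an interval from 4.44 to 6.29. Of all tested features, 99.8% changed less in size.

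The other members sit outside the Sam68 subfamily. *Qk* (GSMG0017100, chromosome 17 from 10206471 to 10319854, minus strand) had 3556, 2980 and 3644 normalized counts in wild-type libraries and 3451, 3755 and 3285 in dKO libraries. The ranges overlap, and wild-type replicate 2 was the lowest library of all. The means were 3393 ± 361 and 3497 ± 239 (SD, n = 3 per genotype). limma gave a log2 fold change of 0.05 (SE 0.10, adjusted p = 0.870). The 95% interval of the fold, from 0.891 to 1.20, leaves room for a change of that size in either direction and excludes one like that of *Khdrbs3*.

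*Sf1* (GSMG0019338, chromosome 19 from 6363690 to 6378038, plus strand) had 8011, 7153 and 7169 normalized counts in wild-type libraries and 9921, 7829 and 8040 in dKO libraries. Wild-type replicate 1 and dKO replicate 1 were each the highest of their genotype, and dKO replicate 2 lay below wild-type replicate 1, so the ranges overlap. The means were 7444 ± 491 and 8597 ± 1152 (SD, n = 3 per genotype). limma gave a log2 fold change of 0.20 (SE 0.10, 95% interval of the fold from 0.986 to 1.34, adjusted p = 0.475). Without dKO replicate 1 the log2 fold change was 0.09. Neither *Qk* nor *Sf1* passed 0.05 before adjustment.

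**Figure D2:**
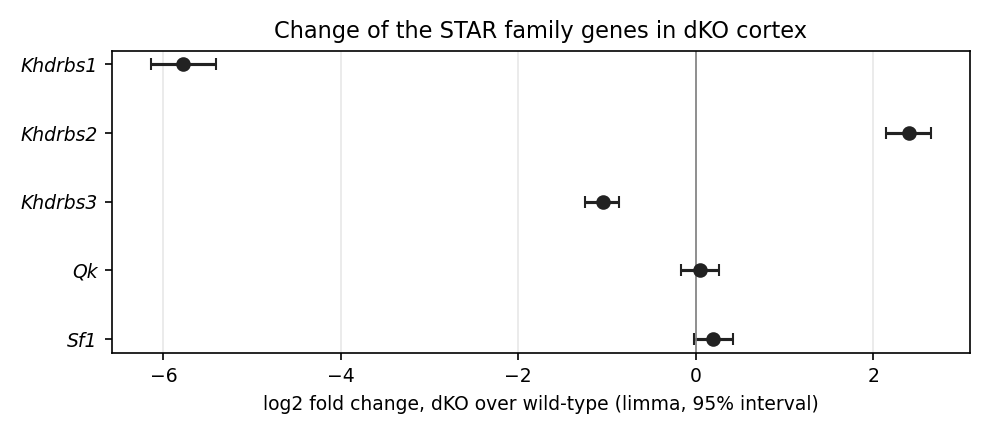
Log2 fold change of each STAR family gene, dKO over wild-type, as points with the 95% interval from limma as bars (3 embryos per genotype). *Khdrbs1* (-5.78) and *Khdrbs3* (-1.05) lie below 0, *Khdrbs2* (2.40) above it, and the intervals of *Qk* and *Sf1* include 0.

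To compare levels between genes, each normalized count was divided by the length of the union of the gene's annotated exons, which gives normalized counts per kb. On this scale, which is of RNA and not protein, *Khdrbs3* was the most abundant member in wild-type cortex at 3780 ± 342 (SD, n = 3). *Khdrbs1* at 1281 ± 36.1 and *Sf1* at 1199 ± 79.0 followed, and their libraries overlapped. *Qk* at 327 ± 34.8 and *Khdrbs2* at 134 ± 20.2 were the lowest, and these did not overlap each other or the members above them. In dKO cortex *Khdrbs3* was still first at 1817 ± 100, ahead of *Sf1* at 1384 ± 185, *Khdrbs2* at 703 ± 61.4, *Qk* at 337 ± 23 and *Khdrbs1* at 23.7 ± 6.47. No neighbours in that order overlapped. On this scale *Khdrbs2* passed from the last place to the third, above *Qk*, and *Khdrbs1* from the second to the last. The order of the means at the top in dKO cortex changed with the length. Per kb of coding length *Khdrbs2* had the highest mean at 6904 ± 603, with *Khdrbs3* at 6409 ± 353 and *Sf1* at 4485 ± 601 (SD, n = 3). Without division by length the order of means was *Sf1*, *Khdrbs2* and *Khdrbs3*. In both of these orders the libraries of *Khdrbs2* and *Khdrbs3* overlapped. *Khdrbs2* ranked above *Qk*, and *Khdrbs1* last, in dKO cortex under all 4 ways of counting length.

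Summed per kb, the 3 subfamily genes reached 5099, 5626 and 4855 in wild-type libraries and 2683, 2397 and 2550 in dKO libraries. Every dKO sum was lower than every wild-type sum. *Khdrbs1* and *Khdrbs3* are the disrupted genes, so a lower sum follows in part from the design. Reads left from these disrupted genes still count in the dKO sum. The dKO mean of 2543 ± 143 was 49.0% of the wild-type mean of 5194 ± 394 (SD, n = 3 each). An exact two-sided permutation test gave p = 0.1. With 3 embryos per genotype it cannot go lower, so no comparison of this kind can pass 0.05.

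The make-up of that sum changed as well. *Khdrbs2* made up 2.31%, 2.78% and 2.60% of it in wild-type libraries and 27.5%, 26.4% and 29.0% in dKO libraries, a rise of 25.1 percentage points in the mean (exact permutation p = 0.1). Because the sum holds both disrupted genes, this share would rise with their fall even if *Khdrbs2* kept its wild-type level. The direction of the share is therefore no separate result beside the rise of *Khdrbs2* itself. *Khdrbs1* made up 24.7% ± 1.18 in wild-type against 0.946% ± 0.311 in dKO cortex (SD, n = 3 per genotype). The share of *Khdrbs3* was 72.7% ± 1.04 in wild-type against 71.4% ± 1.17 in dKO cortex, with overlapping libraries (exact permutation p = 0.3).

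The length used sets these shares. With coding length in place of the exon union, *Khdrbs2* went from 6.28% to 51.4%, and the dKO sum was 64.5% of the wild-type sum. With the longest annotated transcript the shares were 3.56% and 36.6%, and the sum was 51.2%. The near-equal share of *Khdrbs3* in both genotypes held only for the exon union. It went from 64.0% to 47.8% with coding length, from 66.3% to 62.3% with the longest transcript and from 59.0% to 47.4% without division by length. In wild-type cortex the share of *Khdrbs1* was 29.7% with coding length, 30.2% with the longest transcript and 35.1% without length. Per kb of exon union, *Khdrbs2* and *Khdrbs3* together had 3913.1 ± 359.5 in wild-type against 2519.5 ± 149.8 in dKO cortex (SD, n = 3 per genotype). That is 64.4% of the wild-type level, without overlap (exact permutation p = 0.1). Without division by length, the same pair had 15214 ± 1435 normalized counts against 13880 ± 927 in the knockout (SD, n = 3 per genotype, exact permutation p = 0.3), with overlapping libraries. The rise in the share of *Khdrbs2* and the lower sum in dKO cortex had the same direction under each of these lengths, and their sizes did not.

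**Figure D3:**
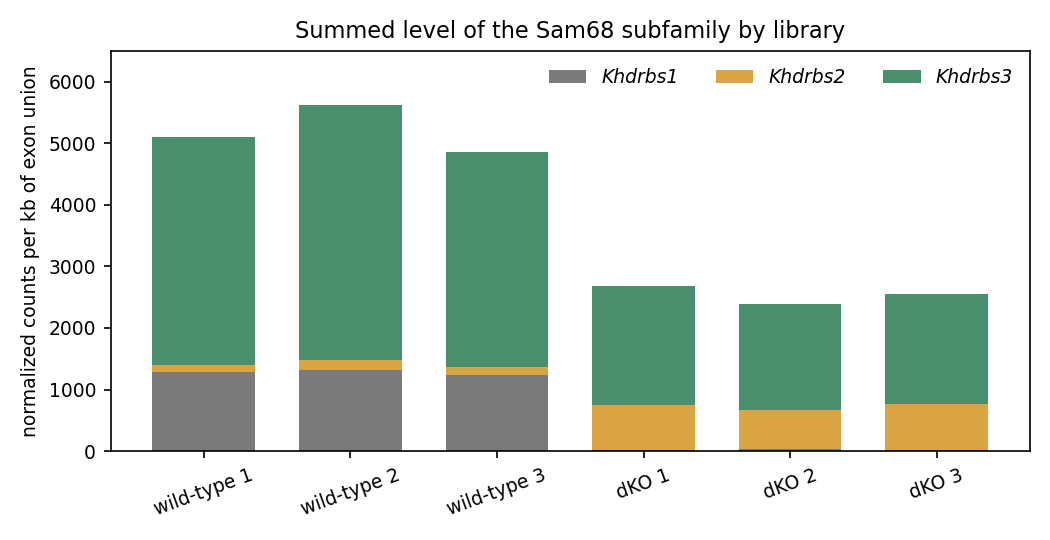
Normalized counts per kb of exon union for *Khdrbs1* (grey), *Khdrbs2* (yellow) and *Khdrbs3* (green), stacked for each of the 3 wild-type and 3 dKO libraries. The dKO sums, between 2397 and 2683, are all below the wild-type sums, between 4855 and 5626, and the yellow part grows as the grey part disappears.

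The annotated transcripts of the members differ in ways that bear on what a whole-gene count holds. GENCODE M21 lists 1 NMD transcript for *Khdrbs1*, 2 for *Khdrbs3*, 1 for *Qk*, 2 for *Sf1* and 0 for *Khdrbs2*. Retained-intron transcripts number 2, 1, 1, 4 and 0 in the same genes. Such isoforms add reads to the normalized counts above, and their part in the changes was not tested. The sense strand of each member's longest protein-coding transcript was also searched for UAAA or UUAA, the motifs that Sam68 and its paralogs bind, with overlapping matches counted. *Khdrbs1* held 24.9 of them per kb, more than 99.8% of the 21877 genes searched in the same way, whose median was 7.2. *Khdrbs2* held 18 per kb, more than 96.5% of genes, *Qk* held 14.2, more than 87.3%, and *Khdrbs3* 11.1, more than 74.1%. *Sf1*, at 6.7 per kb, was close to the median gene. The letters ACUAAC or ACUAAU that quaking binds occurred 7 times in the long transcript of *Qk*, 2 times in that of *Khdrbs2*, 1 time each in *Khdrbs3* and *Sf1* and 0 times in *Khdrbs1*, where 43.3% of all genes had at least 1 match. These matches are letters in a transcript and not sites shown to be bound. Base composition was not allowed for, nor was transcript length in the counts of the quaking letters.

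The spans of the members also hold features without a symbol, 9 in all: 1 inside *Khdrbs1*, 7 inside *Khdrbs2* and 1 inside *Khdrbs3*. Only 1 of the 9 had a mean of at least 10, GSMG0028413 on chromosome 4 from 129705166 to 129707201. It overlaps no annotated exon and lies in the last intron of the NMD transcript of *Khdrbs1*, downstream of the last exon of the protein-coding transcript. It had 46, 32 and 27 reads in the wild-type libraries, or 43.8, 34.4 and 23.7 normalized counts. All 3 dKO libraries had 0 reads. With 3 reads per dKO library as the floor, the feature was at least 10.9-fold lower (limma adjusted p = 0.0275). Its wild-type level was 0.413% of that of *Khdrbs1*, and a fall in proportion to *Khdrbs1* would leave it at 0.629 normalized counts, less than the value of 1 read, so the depth cannot show whether it fell more than its host gene. The call was fragile. In 15 other settings its adjusted p ranged from 1.53e-05 with DESeq2 to 0.313 with limma without wild-type replicate 1, and 8 of the 15 passed 0.05. It was lost with a pseudocount of 0.1, with the replicate block and without any library except dKO replicate 1, at limma adjusted p of 0.0502 and 0.0570 without dKO replicates 2 and 3, and of 0.0938 and 0.164 without wild-type replicates 2 and 3.

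The 7 unnamed features inside *Khdrbs2* stayed low while that gene rose. The highest value in any library was 19.3 normalized counts, and 2 of the 7 were at 0 in all 6 libraries. The unnamed feature inside *Khdrbs3* reached at most 2.32. An unnamed feature that overlaps the start of *Sf1* and the neighbouring gene *Map4k2* had means of 14.7 ± 7.06 and 14.0 ± 4.47 (SD, n = 3 each) and a log2 fold change of 0.01. *Qk* has no such feature.

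Genes of the pathways around the family were followed as lists of known partners and targets. Across the 5 lists, 0 genes passed the adjusted threshold with limma, with edgeR and with DESeq2, and 2 genes, *Hnrnpa1* and *U2af2*, stand in more than 1 list. An unadjusted p under 0.05 was reached by 11.5% of all tested features and by between 7.14% (SF1 partners) and 37.5% (3 of 8 quaking-bound mRNAs) of the lists. Whether a list differs from all features was not tested. The median log2 fold change of all tested features was 0.00. The genes named below are the largest rise and the largest fall of their list, none of them called.

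The NMD list held 16 genes, all tested, of which 2 were higher and 0 lower at unadjusted p under 0.05, with a median log2 fold change of 0.09. *Magoh*, a subunit of the exon junction complex that marks spliced mRNAs, had the highest log2 fold change at 0.37 (limma adjusted p = 0.460), and its libraries overlapped. *Dhx34*, an RNA helicase of the pathway, had the lowest at -0.15 (limma adjusted p = 0.550).

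Among 22 partners and modifiers of Sam68 and SLM2, such as kinases, methyltransferases and other splicing factors, 21 were tested. At unadjusted p under 0.05, 4 were higher and 0 lower, and the median was 0.07. The highest was *Rbmx*, which encodes the splicing regulator hnRNP G, at 0.23, with 4301, 4416 and 4078 normalized counts in wild-type libraries against 5571, 4594 and 4852 in dKO libraries (limma adjusted p = 0.394). The lowest was *Nck1*, an adaptor for tyrosine kinase signals, at -0.25 (limma adjusted p = 0.582). The feature counted for *Hnrnpa1* in this list is merged with a gene model of another name.

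For SF1, 14 partners at the branch site and 3′ splice site were tested, with a median of 0.07. *U2af1*, the small subunit of U2AF that reads the AG at the end of the intron, had the highest log2 fold change at 0.41 (SE 0.11, limma adjusted p = 0.307, unadjusted p = 0.00470). It had 1186, 1263 and 1207 normalized counts in wild-type libraries against 1369, 1644 and 1879 in dKO libraries, which did not overlap. *Uhmk1*, a kinase that phosphorylates SF1, had the lowest at -0.14 with overlapping libraries (limma adjusted p = 0.741).

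The 8 mRNAs known to be bound by quaking spread most widely, with a median of -0.34 while *Qk* itself was level. At unadjusted p under 0.05, 2 were higher and 1 lower. *Mag*, which encodes a myelin protein, had the lowest log2 fold change at -1.43 (SE 0.60) from few counts, 26.5 ± 14.9 in wild-type against 8.32 ± 3.74 in dKO cortex (SD, n = 3 per genotype, limma adjusted p = 0.404). *Cdkn1b*, a cell cycle inhibitor, had the highest at 0.23, with means of 8968 ± 333 and 10554 ± 491 (SD, n = 3 each, limma adjusted p = 0.337). The list holds glial and myelin genes. Beside it, markers of the oligodendrocyte lineage had negative log2 fold changes in 5 of 5 genes, from -0.86 to -0.44. Of these, 3 were at unadjusted p under 0.05. Their summed level ran from 6865 to 11942 normalized counts in wild-type libraries against 3804 to 6466 in dKO libraries. Markers of astrocytes, *Gfap* of the quaking list among them, were also negative in 5 of 5 genes, from -0.98 to -0.10, with 0 at unadjusted p under 0.05 and sums from 1853 to 3216 against 1755 to 2632. Negative signs throughout were not particular to glia. Markers of endothelial cells ran from -0.76 to -0.03 and those of meninges from -1.59 to -0.58. Markers of intermediate progenitors (0.44 to 0.95) and erythroid cells (0.09 to 0.25) were all positive. The part of any of these cells in the values of the quaking list was not tested.

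The splice targets of Sam68 and SLM2 are listed for changes in their exons, which a whole-gene count does not measure. Of 17 genes tested, 1 was higher and 3 lower at unadjusted p under 0.05, and the median was -0.15. *Aldh1a3*, which makes retinoic acid, had the lowest log2 fold change at -1.04 (limma adjusted p = 0.447), with 76.1, 56.9 and 71.0 normalized counts in wild-type libraries against 12.7, 56.5 and 46.4 in dKO libraries. dKO replicate 1 stands far below the others. *Kif21a*, a kinesin motor, had the highest at 0.24 (limma adjusted p = 0.396).

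**Figure D4:**
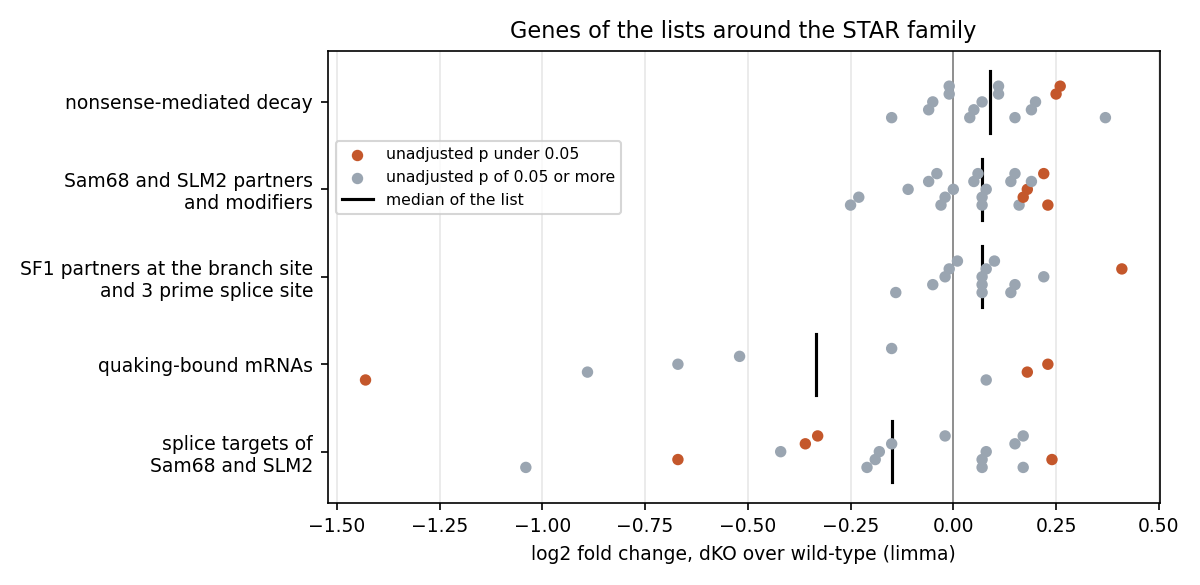
Log2 fold change (dKO over wild-type, limma) of each tested gene in the 5 lists around the STAR family, with orange points for genes at unadjusted p under 0.05, grey for the rest and black bars for list medians. The medians lie between -0.34 and 0.09, and no gene passed the adjusted threshold.

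The genes whose levels moved most like each member over the 6 libraries were found by the root mean square difference of their centred log2(normalized count + 1) profiles, among 11632 features that carry a symbol and average 100 or more. This is a description of 6 points that share libraries and genotype. For *Khdrbs1* no gene came close: *Lynx1*, which encodes a modulator of nicotinic acetylcholine receptors, was nearest at 2.11, where the profile of *Khdrbs1* itself has a root mean square of 2.9. *Lynx1* went from 278 ± 63.7 to 88.4 ± 8.07 (SD, n = 3 per genotype, limma adjusted p = 0.0182), and its gene lies 5.65 Mb from *Khdrbs3* on chromosome 15. *Snhg11* at 2.14 and *Rxfp3* at 2.21 came next and were not called. For *Khdrbs2* the nearest were *Srp54b* at 0.66, *Mfap4* at 0.75 and *Neurog2* at 0.79, against 1.21 for *Khdrbs2* itself. Of these 3 only *Srp54b* was called. This copy of the gene for a signal recognition particle subunit rose from 188 ± 23.2 to 409 ± 56.7 (SD, n = 3 each, limma adjusted p = 0.0320). It belongs to a group of near-identical genes, so its count is uncertain.

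*Khdrbs3* had closer neighbours: *Iqcc* at 0.13 and *Upp2* and *Scml2* at 0.14 each, against 0.53 for its own profile. *Iqcc* had 436 ± 64.9 normalized counts against 242 ± 13.1 in the knockout (SD, n = 3 per genotype, limma adjusted p = 0.0900), and its gene lies 84.1 kb from *Khdrbs1* on chromosome 4. For *Qk* the nearest were *Lzts3*, *Slc16a1* and *Oat*, at 0.02 to 0.04. For *Sf1* they were *Ddx6*, *Vcpip1* and *Nhsl1*, at 0.02 each. None of these 6 passed the adjusted threshold.

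The libraries held between 31837922 and 40896541 reads on the listed features, and the value of 1 read lay between 0.877 and 1.16 normalized counts. Counting error is therefore small for the members, except for *Khdrbs1* in dKO libraries with 126 to 188 reads, and it matters for the unnamed features. Markers of cell types were read beside the tissue label. All 10 markers of cortical neurons were detected, with summed levels from 333524 to 360945 normalized counts in wild-type libraries against 366712 to 412484 in dKO libraries. At an unadjusted p under 0.05 with limma, 933 of all 18970 tested features were higher in dKO cortex and 1248 lower. Of the 10 neuron markers 5 were higher and 0 lower, and 4 of 5 markers of intermediate progenitors were higher. Of 7 radial glia markers 2 were higher and 0 lower, but the list held both signs, from -0.51 for *Hes5* to 0.28 for *Pax6*. Markers that were lower at that level numbered 2 of 5 for endothelial cells, 1 of 4 for meninges and 1 of 5 tested for hippocampus and cortical hem. None of the tested markers of astrocytes (5), microglia (5), interneurons and ganglionic eminence (7), erythroid cells (4, of which 2 are merged features) or choroid plexus (1) reached it. With limma and edgeR 0 markers passed the adjusted threshold, and DESeq2 called 3: *Btg2* of intermediate progenitors, *Pdgfra* of the oligodendrocyte lineage and *Flt1* of endothelial cells. DESeq2 called 202 of all 18970 tested features. No marker list had a gene at 0 in all libraries, so detection of markers alone does not check the tissue label. The part of these shifts in the changes of *Khdrbs2* and *Khdrbs3* was not tested.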

How the data were processed

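RNA was extracted from E18.5 cortex and polyA+ libraries were made with a TruSeq Stranded mRNA kit, per the labels. The submitters' processing notes name build mm10, FastQC, Picard, SAMtools, STAR 2.7.5a and DESeq2. The counting program and its strand setting are not given in the sources used here. The authors deposited 1 table whose signal per feature is a read count divided by a DESeq2 size factor of the library. Within each library 100.0% of positive values were whole multiples of the smallest positive value (tolerance 0.01 reads), which gave back the reads, from 31837922 to 40896541 per library.

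Groups follow the genotype that GEO's labels give each of the 6 libraries. The labels name 3 cortices per genotype without saying whether they share a litter. *P*-values therefore measure the spread between these samples. Genotypes were compared with limma 3.58.1 in R 4.3.3 (trend and robust options) on log2(normalized count + 1) for features whose mean reached 10, and adjusted by Benjamini-Hochberg over all of them at 0.05. Fold changes on this scale understate the change of low features. The files' unit was not raw counts, so limma was the main test and edgeR 4.0.16 (quasi-likelihood) and DESeq2 1.42.0 on the recovered reads were alternatives, as were pseudocounts of 0.1 and 10, a mean of at least 50 or no filter, TMM and quantile scaling, no trend and robust options, the replicate block, each library left out in turn and, for the subfamily sum, other lengths. Sums and shares were compared by exact permutation tests. All 3 tools were tested on simulated data.

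Gene models came from GENCODE M21. Exon union lengths were cut to the span of the feature. The named genes are the members, unnamed features inside them with a mean of at least 10, in each list the called genes or otherwise the extremes, and the 3 genes most like each member. For 1 gene of the lists no values are given. Members and lists were chosen with earlier results of these data known. The marker lists covered cortical neurons, radial glia, intermediate progenitors, interneurons, hippocampus and cortical hem, astrocytes, the oligodendrocyte lineage, endothelial cells, microglia, choroid plexus, erythroid cells and meninges.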

Additional observations from a re-analysis of the deposited data

How the results depend on the processing

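The log2 fold changes of *Khdrbs1* and *Khdrbs2* kept their direction and stayed past the threshold in each of the 16 alternatives, and leaving out single libraries gave -5.98 to -5.59 and 2.32 to 2.52. The same gave -1.11 to -0.98 for *Khdrbs3*. Its call was lost without the trend and robust options (-1.05, limma adjusted p = 0.0891), where 2 members were called; elsewhere 3 were. *Qk* turned to -0.01 with quantile normalization and ran from -0.04 without wild-type replicate 2 to 0.10 without wild-type replicate 3 (-0.01 without dKO replicate 2). *Sf1* ran from 0.09 to 0.26. Neither was called in any alternative, and no gene of the 5 lists was.

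The count of 19 called features went to 7 without the trend and robust options and to 202 with DESeq2, and from 7 without dKO replicate 3 to 46 without dKO replicate 1. With the replicate block it was 9. Same-numbered libraries did not deviate alike from their genotype means, with correlations of 0.256, -0.406 and -0.255. Across numbers, wild-type replicate 2 with dKO replicate 3 had 0.519 and wild-type replicate 3 with dKO replicate 2 had 0.36. The remaining pairs ran from -0.373 to 0.136. Whether libraries share a batch under another numbering was not tested. The replicate block kept the calls of the 3 subfamily genes.

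The call on GSMG0028413 was lost (0 called in place of 1) with a pseudocount of 0.1, with a mean of at least 50, where it is not tested, with the replicate block and without each library except dKO replicate 1 (1 called). The dKO minus wild-type difference in the *Khdrbs2* share, 25.1 percentage points, became 33.1 with the longest transcript, 45.1 with coding length and 45.6 without length, and 24.4 to 25.7 when single libraries were left out. The difference in the summed level was -3560 per kb with the longest transcript, -7398 with coding length and -9394 normalized counts without length. Apart from the alternatives' own construction (fewer features, fewer samples, other lengths), the cause was not tested.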

Other observations

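The features around the members were counted in a window of 10 Mb on either side, chosen after the data were seen. At an unadjusted p under 0.05 with limma, 48 of the 303 tested features around *Khdrbs1* (15.8%), 24 of the 184 around *Khdrbs3* (13%) and 17 of the 95 around *Khdrbs2* (17.9%) differed between the genotypes, next to 11 of 111 around *Qk* (9.91%), 32 of 292 around *Sf1* (11%) and 11.5% of all tested features. Lower against higher numbered 28 to 20 for *Khdrbs1*, 17 to 7 for *Khdrbs3*, 11 to 6 for *Khdrbs2*, 6 to 5 for *Qk* and 16 to 16 for *Sf1*, next to 1248 to 933 over all tested features. The median log2 fold change in these windows stayed between -0.03 and 0.01. The adjusted threshold was passed by GSMG0028413 near *Khdrbs1* and by *Lynx1* near *Khdrbs3*, and by 0 features around the other members. DESeq2 on the recovered reads called 8, 5, 2, 0 and 5 features around *Khdrbs1*, *Khdrbs3*, *Khdrbs2*, *Qk* and *Sf1*. These are out of 303, 184, 95, 111 and 292 tested features, next to 202 called of all 18970 tested features. Whether these shares differ from each other was not tested.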
